A study of Mus musculus with 6 samples.

Results

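Costimulatory receptors are the surface proteins through which a T cell receives its second signal, beside antigen, and 8 of them were followed here in splenic CD8+ T cells: Cd28, Icos, Cd27, Tnfrsf9, Tnfrsf4, Tnfrsf18, Cd226 and Slamf6. The list is a set of names with no threshold on a measured value, though it was drawn up with earlier results of these data known, and each symbol matched 1 of the 28773 Ensembl gene IDs in the deposited tables. The cells were isolated with a kit from mouse spleens on day 35, and their RNA was sequenced. All mice had microwave ablation (MWA) of a tumor. The MWA+PBS group (samples 1, 2 and 3) then had injections of phosphate-buffered saline, and the MWA+2DG group (samples 4, 5 and 6) had 2-deoxy-D-glucose (2DG), an analogue of glucose and inhibitor of its breakdown by glycolysis. The labels used here give no strain, sex or age for these mice and do not say whether each sample was a separate animal, so p-values measure only the spread between these samples. In the study's main model, female BALB/c mice carried 4T1 breast tumors. There the injections began on the day of ablation and ended before day 35.

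CD28 and ICOS belong to the immunoglobulin superfamily and bind B7 family ligands on antigen-presenting cells, and CTLA-4 competes with CD28 for its ligands. CD27, 4-1BB (Tnfrsf9), OX40 (Tnfrsf4) and GITR (Tnfrsf18) belong to the TNF receptor superfamily and signal to NF-kB through TRAF adaptors. CD226 (DNAM-1) binds CD155 and nectin-2 and is opposed by TIGIT and CD96, while SLAMF6 (Ly108) binds itself and signals through the adaptor SAP. CD28 and CD27 are present on resting T cells, whereas ICOS, 4-1BB, OX40 and GITR are raised by activation, and all of these molecules are also found on cells other than CD8+ T cells.

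All 8 transcripts had a higher mean in MWA+2DG than in MWA+PBS. The values were FPKM, fragments per kilobase of transcript mapped, scaled to the size of the library, which allow levels to be compared between genes. Of these, Cd27, Cd226, Tnfrsf18, Cd28, Tnfrsf9 and Slamf6, rose past an adjusted p of 0.05 in limma's moderated test, and Icos and Tnfrsf4 did not. That is 6 of 8 receptors, 75%, against 22.3% of the 12444 genes tested that were higher, and 0 of 8 lower against 17.1% (39.4% in either direction). The median log2 fold change was 0.54 over the 8 receptors and 0.05 over all genes tested. The T lineage genes rose as well, all 14 of them, by a median log2 fold change of 0.43, so the receptors are also given below relative to those genes.

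The order of the receptors' mean FPKM was the same in both groups, with Cd27 highest, followed by Cd226, Cd28, Slamf6, Tnfrsf18, Icos, Tnfrsf4 and Tnfrsf9. Among neighbours in that order, Cd226 overlapped with Cd28 and Tnfrsf18 overlapped with Icos over the MWA+PBS samples. In MWA+2DG only Tnfrsf4 and Tnfrsf9 overlapped. Without MWA+PBS sample 2, where Icos passed Tnfrsf18, or without MWA+2DG sample 5, where Tnfrsf9 passed Tnfrsf4, 6 of the 8 kept the same rank in both groups.

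Promoter sequences are shown for the 4 TNF receptors, because these genes belong to one receptor family while their log2 differences ran from 0.20 to 0.80. Each window holds 250 bases before and 50 bases after a RefSeq start on build GRCm38.p6, which is not the build of the FPKM tables (mm9). The windows are written 5′ to 3′ on the gene's strand, and capitals mark matches on either strand to the letters TGANTCA (AP-1), GGAAA (NFAT) or GGG and CC with any 5 bases between them (NF-kB). Cd27 lies on the minus strand at chr6:125236978-125237277, and the other 3 on the plus strand, Tnfrsf18 at chr4:156026072-156026371, Tnfrsf4 at chr4:156013445-156013744 and Tnfrsf9 (the later of its 2 starts) at chr4:150927749-150928048. Tnfrsf4 and Tnfrsf18 are next to each other among protein-coding genes.
Cd27: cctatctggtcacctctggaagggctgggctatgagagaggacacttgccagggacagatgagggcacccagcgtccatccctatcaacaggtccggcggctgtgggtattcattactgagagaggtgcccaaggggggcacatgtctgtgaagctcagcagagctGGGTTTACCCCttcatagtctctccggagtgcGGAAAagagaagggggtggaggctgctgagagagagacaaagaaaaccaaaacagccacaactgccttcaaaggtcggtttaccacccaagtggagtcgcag
Tnfrsf18: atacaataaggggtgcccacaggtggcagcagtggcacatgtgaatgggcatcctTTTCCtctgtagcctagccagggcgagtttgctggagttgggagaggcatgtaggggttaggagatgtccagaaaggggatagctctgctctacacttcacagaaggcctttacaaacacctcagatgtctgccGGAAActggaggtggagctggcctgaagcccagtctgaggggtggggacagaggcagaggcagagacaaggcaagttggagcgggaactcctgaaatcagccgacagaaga
Tnfrsf4: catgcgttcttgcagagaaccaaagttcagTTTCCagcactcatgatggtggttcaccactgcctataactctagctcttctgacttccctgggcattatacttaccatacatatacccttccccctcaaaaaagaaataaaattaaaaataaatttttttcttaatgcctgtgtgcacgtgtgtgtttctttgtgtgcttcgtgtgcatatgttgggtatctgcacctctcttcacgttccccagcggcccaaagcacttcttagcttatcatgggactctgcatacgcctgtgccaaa
Tnfrsf9: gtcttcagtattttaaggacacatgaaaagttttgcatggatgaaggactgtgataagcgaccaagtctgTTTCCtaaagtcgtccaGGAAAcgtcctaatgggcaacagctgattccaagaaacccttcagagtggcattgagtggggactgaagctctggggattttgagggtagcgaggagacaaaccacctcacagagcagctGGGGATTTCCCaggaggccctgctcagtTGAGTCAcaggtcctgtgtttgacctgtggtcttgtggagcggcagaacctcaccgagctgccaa
The Cd27 window held 2 overlapping NF-kB matches and 1 NFAT match. The Tnfrsf18 window held 2 NFAT matches and the Tnfrsf4 window 1. The Tnfrsf9 window held 1 AP-1 match, 2 overlapping NF-kB matches and 3 NFAT matches, one of them inside the NF-kB match. The window at the earlier Tnfrsf9 start, chr4:150919905-150920204, held 2 NFAT matches and no match to the other letters. Over 32851 RefSeq windows of the same length, 7.81% held the AP-1 letters, 50.8% the NF-kB letters and 61.3% the NFAT letters, so the latter pair are common strings. Of the 8 receptors, 5 matched an entry, with 6 windows in all. Cd28, Icos and Cd226 had none.

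Cd28 (ENSMUSG00000026012), the receptor that sets the threshold of naive T cell activation, measured 21.6, 23.4 and 20.9 FPKM in MWA+PBS samples 1, 2 and 3. It measured 33.0, 34.4 and 33.5 FPKM in MWA+2DG samples 4, 5 and 6. Every MWA+2DG value lay above every MWA+PBS value, and the spread within each group was small. The means were 21.99 ± 1.29 and 33.6 ± 0.727 FPKM (SD, n = 3 each), a 1.53-fold difference. On the log2(FPKM + 1) scale the difference was 0.59 ± 0.06 (SE, limma adjusted p = 0.000214). On that scale fold changes of low genes are understated.

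Icos (ENSMUSG00000026009), which lies beyond Ctla4 from Cd28 on the same chromosome and supports helper and effector T cells after activation, was lower throughout. It measured 6.55, 8.34 and 6.54 FPKM in MWA+PBS and 8.75, 8.60 and 8.71 FPKM in MWA+2DG. The groups did not overlap, but MWA+PBS sample 2 lay close to the MWA+2DG values, far above the other MWA+PBS pair. The means were 7.14 ± 1.04 and 8.69 ± 0.0777 FPKM, a 1.22-fold difference, with a log2 difference of 0.26 ± 0.09 (limma adjusted p = 0.0588). Without MWA+PBS sample 2 the difference was 0.36 and passed the test (limma adjusted p = 0.00328), while it was 0.21 without sample 1 or without sample 3 (limma adjusted p = 0.174 and 0.16). The study's methods set cuts on P and on a log fold change, read here as an unadjusted P below 0.05 and a log2 change larger than 0.25. By that rule Icos counted as higher, which made 7 of 8 receptors against 21.6% of genes tested (38.2% in either direction). Icos and Slamf6 only just cleared the cut on the fold change, and 5 receptors were left by that rule without MWA+PBS sample 1 or 3 or MWA+2DG sample 4 or 6. The same rule gave 6 receptors with quantile normalization and 5 with median ratio scaling.

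Cd27 (ENSMUSG00000030336), the receptor for CD70 that supports survival of primed CD8+ T cells, was the most abundant of the 8. Its FPKM was 62.8, 64.8 and 63.2 in MWA+PBS and 117.8, 103.4 and 113.2 in MWA+2DG. The MWA+PBS values were nearly equal, and the lowest MWA+2DG value, in sample 5, was still far above them. The means were 63.6 ± 1.07 and 111.5 ± 7.36 FPKM, a 1.75-fold difference, and the log2 difference was 0.80 ± 0.06 (limma adjusted p = 6.34e-05). Vamp1, which overlaps Cd27 on the opposite strand, measured 4.26, 3.97 and 3.96 FPKM in MWA+PBS and 8.10, 8.57 and 7.85 FPKM in MWA+2DG. The sources used here do not say whether strand was used in the counting, so reads of Cd27 and Vamp1 in the shared stretch cannot be told apart.

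Tnfrsf9 (ENSMUSG00000028965), encoding 4-1BB, which is induced by antigen and marks recently activated CD8+ T cells, was the least abundant. Its FPKM was 1.66, 1.46 and 1.6 in MWA+PBS and 2.32, 2.45 and 3.09 in MWA+2DG. All 3 MWA+2DG samples were higher, with sample 6 above the other pair. The means were 1.57 ± 0.103 and 2.62 ± 0.412 FPKM, and the log2 difference was 0.49 ± 0.10 (limma adjusted p = 0.0082). Camta1, on the opposite strand over Tnfrsf9, measured 0.56, 0.53 and 0.59 FPKM in MWA+PBS and 0.81, 0.74 and 0.67 FPKM in MWA+2DG. It was thus also higher in every MWA+2DG sample, and reads of the shared stretch cannot be told apart.

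Tnfrsf4 (ENSMUSG00000029075), encoding OX40, prolongs T cell responses after activation. It measured 2.15, 2.12 and 2.85 FPKM in MWA+PBS and 2.35, 3.56 and 2.74 FPKM in MWA+2DG. It was the only receptor of the 8 whose groups overlapped, since MWA+PBS sample 3 was above MWA+2DG samples 4 and 6. The means were 2.37 ± 0.413 and 2.88 ± 0.618 FPKM, and the log2 difference of 0.20 ± 0.14 did not pass the test (limma adjusted p = 0.291). Without MWA+2DG sample 5 that difference was 0.08. Groups without overlap and with MWA+2DG higher were thus found for 7 of 8 receptors, against 30.2% of the genes tested (52.1% with either group higher).

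Tnfrsf18 (ENSMUSG00000041954), the neighbour of Tnfrsf4, encodes GITR, a receptor abundant on regulatory T cells and raised on activated CD8+ T cells. Its FPKM was 6.27, 10.01 and 6.32 in MWA+PBS and 13.9, 11.9 and 13.95 in MWA+2DG. MWA+PBS sample 2 was again the highest of its group, and MWA+2DG sample 5 the lowest of its own, without overlap. The means were 7.53 ± 2.15 and 13.3 ± 1.16 FPKM, a 1.76-fold difference, with a log2 difference of 0.77 ± 0.16 (limma adjusted p = 0.00807). Without MWA+PBS sample 2 it was 0.97 (limma adjusted p = 0.000377). Its ratio of levels to those of the neighbouring gene is given below.

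Cd226 (ENSMUSG00000034028) encodes an activating receptor of cytotoxic lymphocytes and natural killer (NK) cells. It measured 22.9, 31.1 and 23.8 FPKM in MWA+PBS and 42.1, 45.0 and 47.0 FPKM in MWA+2DG. Sample 2 stood above the other MWA+PBS samples and well below every MWA+2DG sample. The means were 26.0 ± 4.49 and 44.7 ± 2.45 FPKM, a 1.72-fold difference, with a log2 difference of 0.77 ± 0.11 (limma adjusted p = 0.00149). Without MWA+PBS sample 2 the difference was 0.90.

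Slamf6 (ENSMUSG00000015314), widely used as a marker of stem-like CD8+ T cells, moved least among the receptors called. It measured 18.2, 20.6 and 17.7 FPKM in MWA+PBS and 23.1, 21.5 and 23.1 FPKM in MWA+2DG. The groups did not overlap, with less than 1 FPKM between MWA+PBS sample 2 and MWA+2DG sample 5. The means were 18.8 ± 1.53 and 22.6 ± 0.915 FPKM, and the log2 difference was 0.25 ± 0.07 (limma adjusted p = 0.0234). The call was lost when MWA+PBS sample 1 or 3, or MWA+2DG sample 4 or 6, was left out, where the difference was between 0.21 and 0.32 over all single removals.

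**Figure D1:**
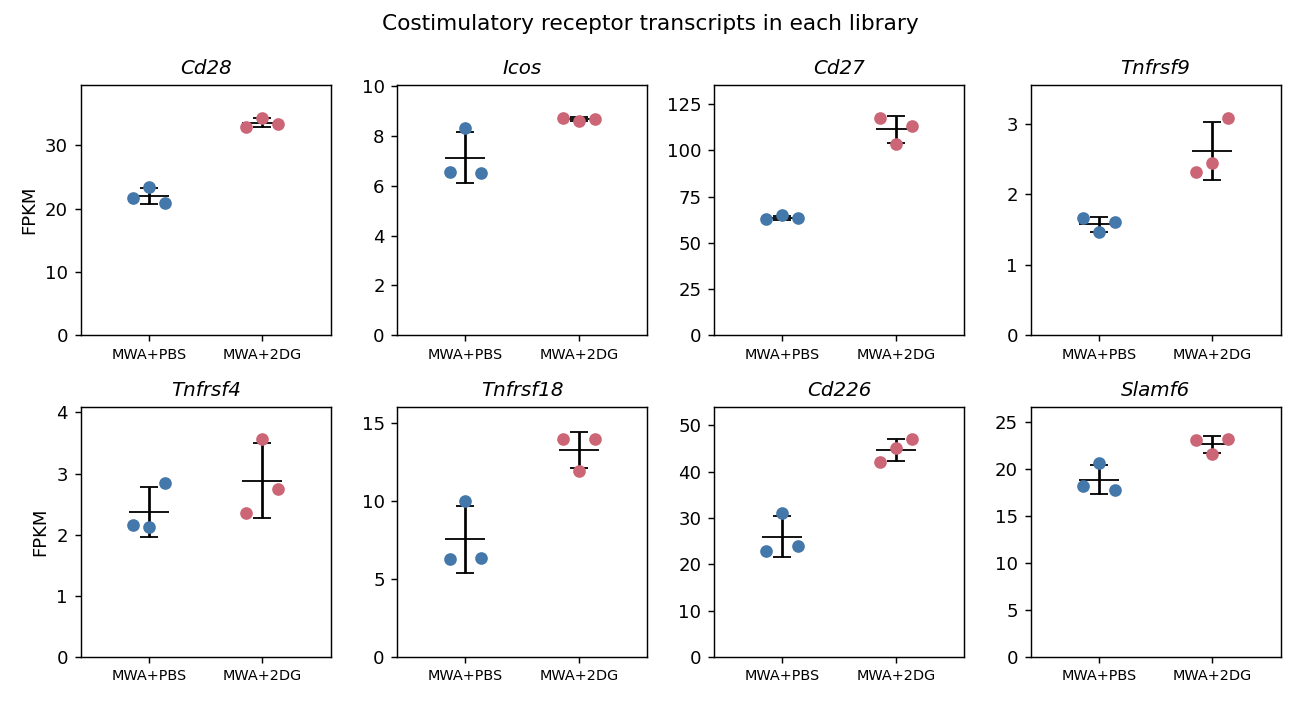
FPKM of the 8 receptors in each library, 1 panel per gene with its own linear axis from 0. Points are single libraries and the bars are the mean ± SD of 3. Only the Tnfrsf4 groups overlap, and in 6 of the 8 panels the highest MWA+PBS point is sample 2.

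MWA+PBS sample 2 was the highest of its group for 6 of the 8 receptors, all but Tnfrsf9 and Tnfrsf4. The same sample was highest of its group for 43.7% of all genes tested and for 6 of the 14 T lineage genes. Other annotated transcripts overlap Tnfrsf18 (Gm16008, antisense, 0.10 to 0.92 FPKM), Slamf6 (Gm37065, antisense, 0.18 to 0.71 FPKM) and Icos (Gm37039, same strand, 0.06 to 0.20 FPKM), all far below the receptors. Leaving out single libraries gave between 5 and 7 receptors called higher, the 7 without MWA+PBS sample 2.

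In bulk RNA, fewer or more cells of a type and less or more RNA per cell cannot be told apart. The 14 T lineage genes, among them the CD3 chains, Cd8a, Cd8b1, Lck and the T cell receptor constant genes, rose in MWA+2DG by log2 fold changes of 0.27 (Zap70) to 0.66 (Cd8a). Cd8a, the chain that defines these cells, measured 229.5, 239.3 and 225.8 FPKM in MWA+PBS and 363.1, 359.0 and 377.1 FPKM in MWA+2DG. Cd27, Cd226 and Tnfrsf18 rose by more than each of the 14, Cd28 and Tnfrsf9 fell within their range, and Icos, Slamf6 and Tnfrsf4 lay below it. The places of the low genes Tnfrsf9 and Icos depended on the pseudocount. At 0.1 the T lineage range was 0.27 to 0.66, with Tnfrsf9 above it at 0.69 and Icos within it at 0.29.

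When every library was rescaled so that the 14 genes had equal mean log2 levels, the median of all genes tested moved to -0.40. On that scale 2 of 8 receptors were higher, Cd27 by 0.35 (limma adjusted p = 0.000698) and Cd226 by 0.32 (limma adjusted p = 0.0283), against 3.54% of genes tested. Slamf6 was lower, at -0.20 (limma adjusted p = 0.0207), which made 1 of 8 receptors against 71.3% of genes tested. Tnfrsf18 stood at 0.32 (limma adjusted p = 0.0839), Cd28 at 0.14 (limma adjusted p = 0.0705) and Tnfrsf9 at 0.04 (limma adjusted p = 0.771). Icos at -0.19 (limma adjusted p = 0.0803) and Tnfrsf4 at -0.25 (limma adjusted p = 0.182) were on the other side of 0 and also not called. The scaling lowered every gene's log2 difference by the same 0.45, so each gene between 0 and that value in the deposited FPKM has a negative sign here by construction, as Icos, Tnfrsf4 and Slamf6 do. With a pseudocount of 1, scaled values of low genes such as Tnfrsf9 are understated beside the abundant T lineage genes. The scaling was not run with a pseudocount of 0.1.

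**Figure D2:**
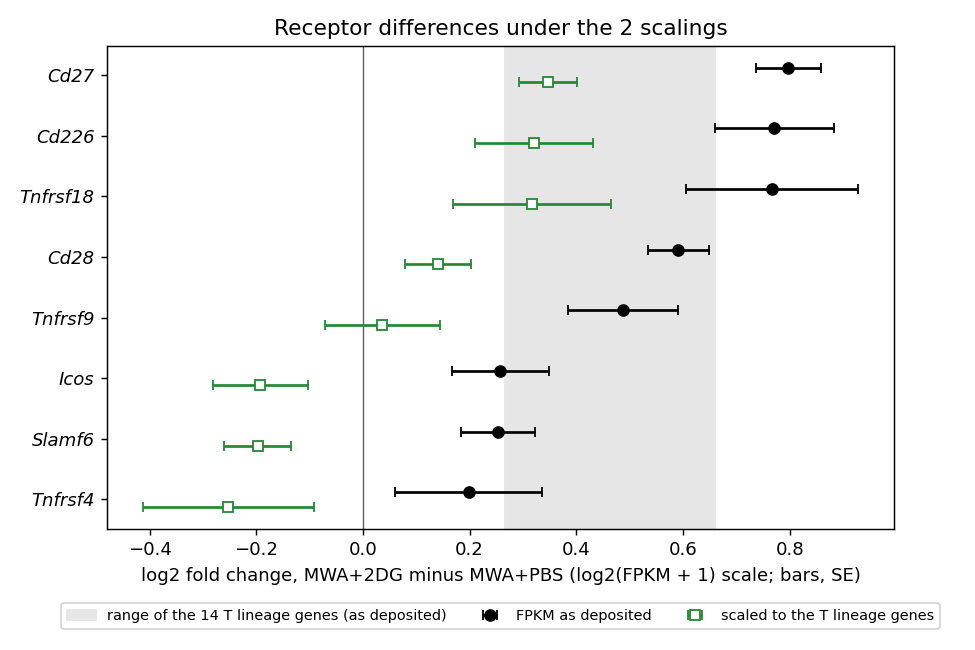
Log2 fold change of each receptor, MWA+2DG minus MWA+PBS on the log2(FPKM + 1) scale. Filled circles are FPKM as deposited, open squares are values scaled to the T lineage genes, bars are SE, and the grey band is the range of the 14 T lineage genes as deposited. Cd27, Cd226 and Tnfrsf18 lie above the band, and Icos, Slamf6 and Tnfrsf4 fall below 0 after scaling.

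Ratios between transcripts of the same library hardly depend on the library's scale, and 16 were compared with two-sided exact permutation tests, in which 3 samples against 3 cannot go below p = 0.1. With a pseudocount of 1 on both genes, none of the 8 ratios of a receptor to Cd3e separated the groups, and at 0.1 only that of Tnfrsf9 did (0.31, exact p = 0.1). Cd3e itself was lowest in MWA+PBS sample 2, at 88.7 FPKM, and highest in MWA+2DG sample 5, at 142.1 FPKM. Among pairs of receptors or of a receptor and its opponent, 5 of 8 ratios separated the groups with a pseudocount of 1, and 3 of them also did so at 0.1. Each of the 5 had an exact p = 0.1 and an adjusted p of 0.291 over the 16. How often ratios of other gene pairs separate was not measured, while 52.1% of single genes tested did not overlap between the groups. With Cd8a as the reference in place of Cd3e, chosen after seeing the data, the log2 differences of Icos (-0.40), Tnfrsf4 (-0.46), Slamf6 (-0.41) and Cd27 (0.14) each had an exact p = 0.1.

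The 3 ratios that separated the groups at both pseudocounts were those of Slamf6 to Cd226, Icos to Cd28 and Cd226 to Cd96. The ratio of Slamf6 to Cd226 was 0.793, 0.661 and 0.743 in MWA+PBS and 0.549, 0.479 and 0.493 in MWA+2DG, so Slamf6 was lower relative to Cd226 in every MWA+2DG sample, by a log2 difference of -0.52. The ratio of Icos to Cd28 was 0.303, 0.356 and 0.312 in MWA+PBS and 0.265, 0.25 and 0.260 in MWA+2DG, a log2 difference of -0.33. That of Cd226 to Cd96, which competes for the same ligand, was 0.472, 0.527 and 0.473 in MWA+PBS and 0.577, 0.676 and 0.609 in MWA+2DG, a log2 difference of 0.32. In all 3 MWA+2DG samples Cd226 was thus higher relative to both Slamf6 and Cd96, and Icos lower relative to Cd28. None of these differences went below the smallest exact permutation p of 0.1 (adjusted p = 0.291).

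The other pair of ratios separated the groups only with a pseudocount of 1, and at 0.1 each had an exact p = 0.2. The plain ratio of Cd28 to Ctla4 was 20.8, 15.3 and 14.6 over MWA+PBS samples and 18.0, 21.8 and 21.9 over MWA+2DG samples, so MWA+2DG sample 4 lay below MWA+PBS sample 1. That of Cd27 to Cd28 was 2.91, 2.77 and 3.02 over MWA+PBS samples and 3.57, 3.01 and 3.38 over MWA+2DG samples, so MWA+2DG sample 5 lay just below MWA+PBS sample 3. Cd226 to Tigit (0.47, exact p = 0.2), Tnfrsf9 to Tnfrsf4 (0.29, exact p = 0.3) and Tnfrsf4 to Tnfrsf18 (-0.57, exact p = 0.2) overlapped between groups. Single libraries weighed on the last pair of these. Tnfrsf9 to Tnfrsf4 was 0.18 without MWA+2DG sample 6 and 0.44 without MWA+2DG sample 5, and Tnfrsf4 to Tnfrsf18 was -0.37 without MWA+PBS sample 3.

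Apart from SLAMF6, which binds itself, the receptors have separate ligands, several of them made by antigen-presenting cells. Of 9 such ligands listed, 8 had an ID, all but Cd70, the CD27 ligand. Apart from Cd86, their transcripts were below 5 FPKM in every library. Of the 8, 4 passed the minimum mean of 1 FPKM, with 2 higher, 2 lower and a median log2 fold change of -0.25. Of all genes tested, 22.3% were higher and 17.1% lower. Cd86, the B7 ligand of CD28, fell from 9.87, 10.4 and 10.1 FPKM to 4.94, 4.6 and 4.41 FPKM, a log2 difference of -0.98 (limma adjusted p = 2.75e-05). Tnfsf9, the 4-1BB ligand, fell from 1.94, 1.64 and 2.04 FPKM to 0.62, 0.56 and 0.38 FPKM (-0.92, limma adjusted p = 0.000604). Neither ligand overlapped between the groups. All 10 macrophage markers and 3 of 4 dendritic cell markers tested fell as well, though the summed FPKM of the 9 dendritic cell markers overlapped (36.2 to 42.5 and 34.3 to 38.6), and their part in the ligand values was not tested.

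Icosl, the ICOS ligand, measured 2.48, 2.29 and 2.01 FPKM in MWA+PBS and 3.64, 3.18 and 3.28 FPKM in MWA+2DG (0.42, limma adjusted p = 0.00745). Pvr, the CD155 ligand of CD226, measured 2.47, 2.80 and 2.61 FPKM in MWA+PBS and 3.83, 4.31 and 4.28 FPKM in MWA+2DG (0.50, limma adjusted p = 0.00186). Both rose, though scaled to the T lineage genes Icosl stood at -0.03 and Pvr at 0.05. Those scaled values used a pseudocount of 1. At 0.1, before scaling, Icosl rose by 0.56 and Pvr by 0.64, within the T lineage range of 0.27 to 0.66. Tnfsf4, the OX40 ligand, was below the minimum, with 0.37, 0.18 and 0.51 FPKM in MWA+PBS and 1.04, 1.24 and 1.31 FPKM in MWA+2DG. Nectin2, the other CD226 ligand, was also below it, at 0.58, 0.51 and 0.46 FPKM in MWA+PBS and 0.10, 0.18 and 0.33 FPKM in MWA+2DG. Cd80, the other B7 ligand of CD28, ranged from 0.95 to 1.19 FPKM in MWA+PBS and from 0.42 to 0.95 FPKM in MWA+2DG, and Tnfsf18, the GITR ligand, did not exceed 0.17 FPKM in any sample.

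Receptors that oppose costimulation moved both ways, with 2 of 9 higher, 2 lower and a median log2 fold change of 0.19, shares near those of all genes tested (22.3% higher and 17.1% lower). Btla, the inhibitory receptor for HVEM, rose from 10.6 ± 0.477 to 19.2 ± 1.47 FPKM (0.80, limma adjusted p = 0.000122) and stayed higher after T lineage scaling, at 0.35 (limma adjusted p = 0.00214). Cd96 rose from 52.7 ± 5.60 to 72.2 ± 5.27 FPKM (0.45, limma adjusted p = 0.00586), but stood at -0.000875 after that scaling. Pvrig, which binds nectin-2, fell from 7.16 ± 0.692 to 2.89 ± 0.320 FPKM (-1.07, limma adjusted p = 0.000126). Lag3, an inhibitory receptor for MHC class II, fell by 0.46 on the log2 scale (limma adjusted p = 0.0161), and that call was lost when MWA+PBS sample 1 or 3, or MWA+2DG sample 5 or 6, was left out. The genes of the exhaustion receptors Pdcd1 (0.24), Tigit (0.30), Ctla4 (0.19), Cd160 (0.18) and Havcr2 (0.08) did not pass the test, and after T lineage scaling all 5 stood below 0, with Cd160 called lower (-0.275, limma adjusted p = 0.0414). With sample weights in the fit Ctla4 (0.31, limma adjusted p = 0.0407), Pdcd1 (0.24, limma adjusted p = 0.0477) and Cd160 (0.30, limma adjusted p = 0.0298) passed. Tigit passed when MWA+2DG sample 6 was left out (0.40, limma adjusted p = 0.03). Single libraries also weighed on the others. Ctla4 and Cd160 each stood at 0.09 without MWA+PBS sample 1, and Havcr2 at 0.22 without MWA+2DG sample 6. Of these 5 receptors, Ctla4, Pdcd1 and Havcr2 were low, with group means from 0.993 to 2.16 FPKM.

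Among 16 other costimulatory receptors, 15 were tested and 9 were higher, 1 was lower and 5 were not called, with a median log2 fold change of 0.38. Slamf7 rose from 3.62 to 7.82 FPKM (0.93, limma adjusted p = 5.49e-05). Cd2, the adhesion receptor for CD48 in mice, rose from 70.1 to 113.6 FPKM (0.69, limma adjusted p = 0.000345). Cd84, the SLAM family neighbour of Slamf6, rose by 0.34 (limma adjusted p = 0.00272) but stood at -0.11 after T lineage scaling. Slamf7 (0.48, limma adjusted p = 0.000524) and Cd2 (0.24, limma adjusted p = 0.00669) stayed higher after that scaling. Cd244a, encoding the SLAM family receptor 2B4, fell by 0.97 on the log2 scale (limma adjusted p = 0.000338). Of the listed SLAM family genes only Cd244a was called lower. Slamf6, Slamf7, Cd84 and Ly9 (0.38, limma adjusted p = 0.00314) were called higher, and Slamf1 (0.12) was not called.

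Genes that carry these receptors' signals had medians nearer to 0. Of 18 CD28 and ICOS signalling genes, 6 were higher, 2 lower and 10 not called, with a median of 0.06. All genes tested had a median of 0.05, with 22.3% higher and 17.1% lower. Carmil2 (0.47, limma adjusted p = 0.000298), a CD28 partner, and Malt1 (0.47, limma adjusted p = 0.000451), the paracaspase, rose, but were near 0 after T lineage scaling (0.0193 and 0.0144). Pik3r1 and Akt1, of the PI3K pathway, each fell by 0.32 (limma adjusted p = 0.00204 and 0.0025).

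Of 15 TNF receptor signalling genes, 6 were higher, 1 lower and 8 not called, with a median of 0.09. The shares over all genes tested were 22.3% higher and 17.1% lower. Traf1, an adaptor of 4-1BB, rose from 12.7 to 19.6 FPKM (0.59, limma adjusted p = 0.000296). Birc2 (0.41, limma adjusted p = 0.0137) and Birc3 (0.21, limma adjusted p = 0.0392), its ubiquitin ligase partners, were also higher. The Birc3 call was lost without MWA+PBS sample 1 or 3 or MWA+2DG sample 4 or 6, with median ratio scaling (limma adjusted p = 0.0656) and without a trend in eBayes (limma adjusted p = 0.0534), and Traf1 stood at 0.14 and was not called after T lineage scaling. Tnfaip3, encoding the NF-kB inhibitor A20, fell from 16.6 to 9.34 FPKM (-0.77, limma adjusted p = 0.000171).

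Of 8 SLAM and CD226 signalling genes, 4 were higher, 1 lower and 3 not called, beside 22.3% higher and 17.1% lower of all genes tested. Itgal (0.42, limma adjusted p = 0.00106) and Itgb2 (0.27, limma adjusted p = 0.00969), the chains of the integrin LFA-1, rose. Sh2d1a, encoding SAP, rose by 0.35 (limma adjusted p = 0.0107). Sh2d1b1, encoding the related adaptor EAT-2 of NK and myeloid cells, fell from 4.40 to 0.763 FPKM (-1.61, limma adjusted p = 3.39e-05). After T lineage scaling Itgal, Sh2d1a and Birc2 stood below 0 without being called, and Itgb2 (-0.18, limma adjusted p = 0.0173) and Birc3 (-0.24, limma adjusted p = 0.00907) were called lower.

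Genes induced by T cell activation did not move together, with 4 of 15 tested higher, 7 lower, 4 not called and a median of -0.17. Among all genes tested 22.3% were higher and 17.1% lower. Egr3 (0.43, limma adjusted p = 0.0202) and Irf4 (0.40, limma adjusted p = 0.00321) were higher, although both stood below 0 after T lineage scaling and the Egr3 call was lost without MWA+2DG sample 4 or 5. The immediate early genes Jun (-3.18, limma adjusted p = 3.56e-07) and Fosb (-3.06, limma adjusted p = 8.54e-07) fell most.

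**Figure D3:**
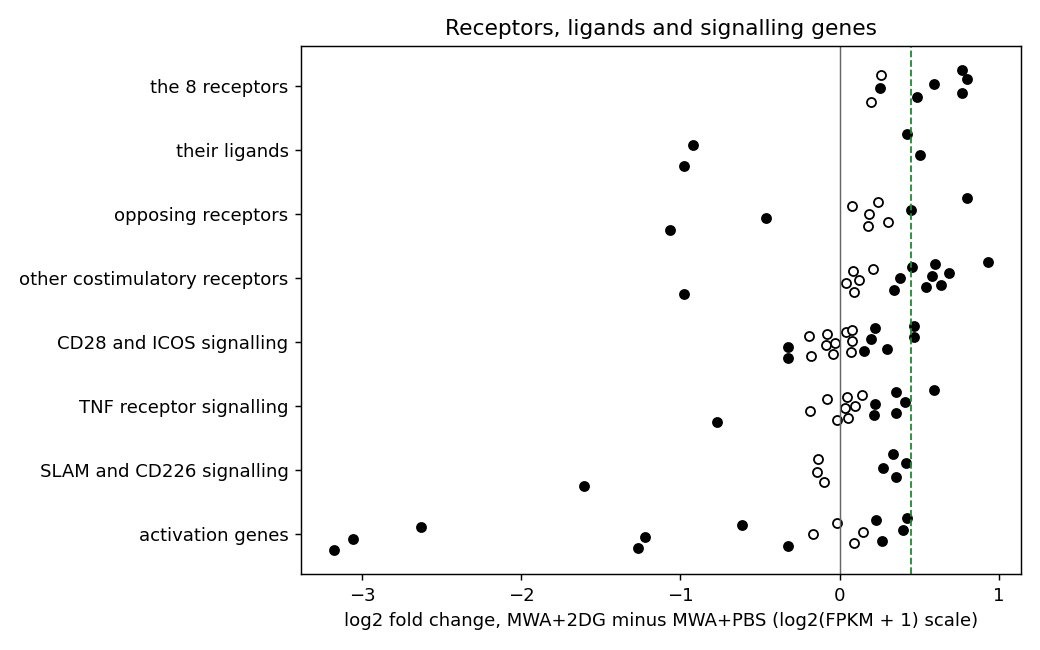
Log2 fold change of each tested gene in the receptor, ligand, opposing receptor and signalling lists. Filled points passed an adjusted p of 0.05 in limma and open points did not. The dashed line is the T lineage mean of 0.45. The 8 receptors all lie above 0, while the signalling lists centre near 0 and the activation list reaches -3.18.

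Markers of other cells moved strongly between the groups, and their part in the receptor differences was not tested. Summed FPKM of 10 neutrophil genes was 101.2 to 126.5 over the MWA+PBS libraries and 1536 to 1712 over those of MWA+2DG, with 9 of 10 higher. Summed FPKM of 10 macrophage genes went from 602.2 to 657.1 down to 91.5 to 98.9, with all 10 lower, and that of 8 erythroid genes from 291.7 to 347.4 down to 66.9 to 84.7, with all 8 lower. None of these markers was at 0 in any library. For scale, 22.3% of all genes tested were higher and 17.1% lower.

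The cells that share these receptors with CD8+ T cells were also compared. Of 9 CD4 and regulatory T cell markers, 6 were tested and 0 were higher, 2 lower and 4 not called, and their sum was 13.9 to 14.9 FPKM over the MWA+PBS samples and 11.9 to 12.1 FPKM over the MWA+2DG samples. Foxp3, which defines regulatory T cells, was 0.59, 0.44 and 0.62 FPKM in MWA+PBS and 0.60, 0.77 and 0.41 FPKM in MWA+2DG, and overlapped. Cd4 was 2.91, 2.76 and 2.59 FPKM in MWA+PBS and 1.65, 1.55 and 1.77 FPKM in MWA+2DG (-0.50, limma adjusted p = 0.00252).

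Of 10 NK markers, 9 had an ID and 5 were tested, with 1 higher, 3 lower and a summed FPKM of 130.7 to 144.1 over the MWA+PBS libraries and 90.8 to 101.0 over those of MWA+2DG. The mean FPKM of Tyrobp (43.5 and 16.9) and Fcer1g (29.8 and 8.19), adaptor genes that myeloid cells share, fell by more than that sum did, and Prf1 (30.4 and 41.3) rose. Ncr1, the NK cell receptor NKp46, was 7.17, 6.34 and 6.12 FPKM in MWA+PBS and 4.76, 5.02 and 4.97 FPKM in MWA+2DG (-0.35, limma adjusted p = 0.00764). Klrb1b was at 0 in 3 libraries and Klra4 in 2. Of 9 dendritic cell markers, 4 were tested and 3 were lower. Of 9 B cell markers, 8 were tested and all 8 were higher, and the 9 summed to 10.9 to 12.1 and 53.6 to 58.7 FPKM. Summed FPKM of the 8 receptors was 142.2 to 161.9 and 230.8 to 245.3.

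**Figure D4:**
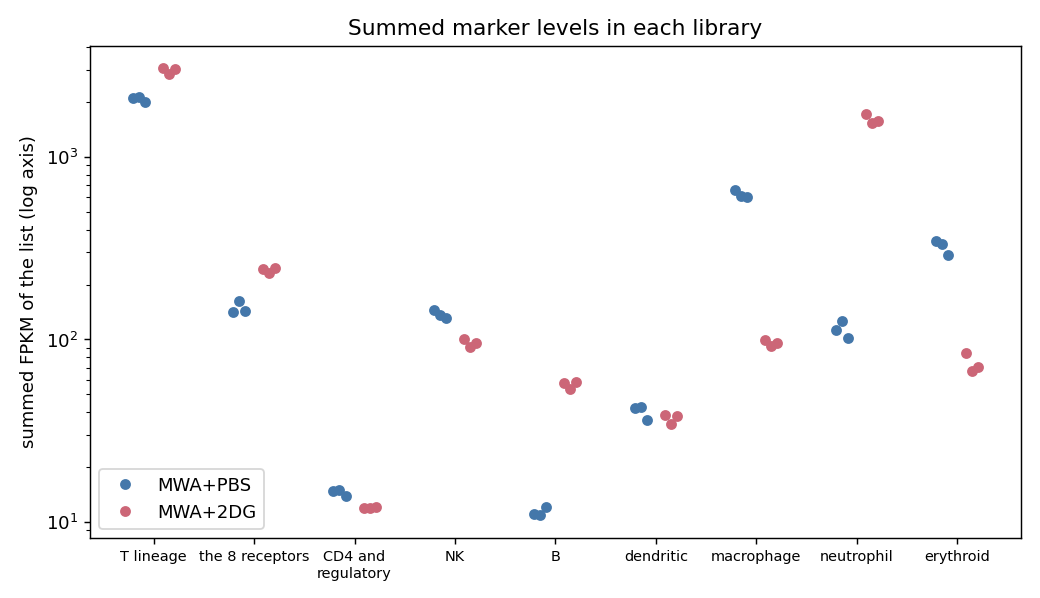
Summed FPKM of each marker list and of the 8 receptors in each library, on a log axis. Points are single libraries of MWA+PBS and MWA+2DG. Neutrophil sums are higher and macrophage and erythroid sums are lower in all 3 MWA+2DG libraries.

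Likeness was measured as the root mean square difference in log2(FPKM + 1), centred on the mean of the 6 samples, so a small value means a similar pattern over these samples. Among 12443 other genes, Ogt (0.0189) was nearest to Cd28, Setdb2 (0.0179) to Icos and Mgst2 (0.0356) to Cd27. Those nearest to Tnfrsf9, Tnfrsf4 and Tnfrsf18 were Phf7 (0.038), Gys1 (0.051) and Jrkl (0.0573). AW549877 (0.0499) was nearest to Cd226 and Lamtor3 (0.0147) to Slamf6. None of these 8 is a member of the receptor or signalling lists.

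The second nearest genes were Gm11346 (0.0203) for Cd28, Ifi204 (0.0191) for Icos, Zfp329 (0.0433) for Cd27 and Slc52a2 (0.0447) for Tnfrsf9. They were Mfsd4a (0.0604) for Tnfrsf4, Trbj2-3 (0.0841) for Tnfrsf18, Zfp983 (0.0507) for Cd226 and Rbm6 (0.0191) for Slamf6. Tnfrsf18 had the most distant neighbours.

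Depth could not be given, since FPKM holds no read counts. The 6 libraries were alike in the totals of the tables, 291803 to 313257 FPKM, and in genes above 0, 22414 to 23340. The low receptors Tnfrsf9 and Tnfrsf4 therefore have an unknown counting error beside the spread shown.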

How the data were processed

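RNA of 6 CD8+ T cell samples was made into poly(A) libraries with strand marks and molecular identifiers. FPKM values were computed by the authors and deposited per gene. The study's methods name fastp, HISAT2, StringTie and ballgown, and the submitters' processing notes list cutadapt 1.9, HISAT2 2.0.4, UMI-tools, StringTie 1.3.4d and build mm9. The annotation, and the use of strand and identifiers in counting, were not stated in any source used here.

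Of 28773 IDs, 28689 had a symbol in GENCODE M21 and 84 had none. Genes with a mean of at least 1 FPKM (12444) were fitted as log2(FPKM + 1) with limma 3.58.1 in R 4.3.3 (lmFit, eBayes with trend, two-sided, no covariates, MWA+2DG minus MWA+PBS), with Benjamini-Hochberg adjustment over all genes tested. The fit was tested on simulated data. Ratios were compared by exact permutation over samples. Other steps used Python 3.11.15, pandas 2.3.3, numpy 2.4.6 and matplotlib 3.10.9. Promoters were searched in RefSeq windows of GRCm38.p6.

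The receptors and all lists were chosen with earlier results of these data known. Named were the 8 receptors, every ligand and opposing receptor, from each other list the called genes with the 2 largest and 2 smallest changes, Foxp3, Cd4, Cd3e and Cd8a, and per receptor the 2 genes of most similar pattern. Ly9, Slamf1, Ncr1, Tyrobp, Fcer1g, Prf1, Vamp1, Camta1, Gm16008, Gm37065, Gm37039, Zap70, Klrb1b and Klra4 were named after their values were seen. Alternatives were a pseudocount of 0.1, no filter, a minimum of 5 FPKM, other scalings and fits, single libraries left out and Cd8a as reference.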

Additional observations from a re-analysis of the deposited data

How the results depend on the processing

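No paired analysis was possible because MWA+PBS samples carry the numbers 1, 2 and 3 and MWA+2DG samples 4, 5 and 6, so no number is shared. Scaling to the T lineage genes changed most. It left 2 receptors higher and 1 lower (2 higher by the study's rule) and, in the related lists, 5 higher and 53 lower, against 3.54% of all genes tested higher and 71.3% lower. It lowers every log2 difference by 0.45, so the sign changes listed below follow from the size of the values before scaling. They also depend on the pseudocount of 1, which understates fold changes of low genes. At 0.1, before scaling, Icosl was 0.56, Irf4 0.50, Egr3 0.49 and Sh2d1a 0.48, and scaling was not run with that pseudocount. After scaling, Cd28 stood at 0.14, Tnfrsf9 at 0.0366 and Tnfrsf18 at 0.32, none called. Icos (-0.19), Tnfrsf4 (-0.25) and Slamf6 (-0.20) turned, as did Icosl (-0.0278), Cd84 (-0.11), Cd96 (-0.000875), Ctla4 (-0.26), Pdcd1 (-0.21), Tigit (-0.15), Cd160 (-0.275), Havcr2 (-0.37), Birc2 (-0.0368), Birc3 (-0.24), Itgb2 (-0.18), Itgal (-0.0339), Sh2d1a (-0.0975), Irf4 (-0.053), Egr3 (-0.0254) and Cd3e (-0.0723). With no filter on low values Slamf6 was 0.25 (limma adjusted p = 0.0517), and Lag3, Birc3, Egr3 and Cd3e also lost their calls (limma adjusted p = 0.0558, 0.069, 0.0663 and 0.0502). With sample weights Icos was 0.33 (limma adjusted p = 0.0046), and Ctla4, Pdcd1 and Cd160 passed too. Why calls moved without the filter or with weights was not tested.

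Leaving out single libraries, the log2 differences ranged from 0.21 to 0.32 for Slamf6 and from 0.21 to 0.36 for Icos, and the ratios to Cd3e from -0.22 to 0.0469 for Icos, from -0.0124 to 0.22 for Tnfrsf9 and from -0.22 to 0.00222 for Slamf6. With Cd8a as the reference in place of Cd3e, chosen after seeing the data, Cd28 (-0.0688) and Tnfrsf9 (-0.173) turned, and Icos, Tnfrsf4, Slamf6 and Cd27 reached the smallest exact p. At a minimum mean of 5 FPKM, Tnfrsf9 and Tnfrsf4 were not tested. Read depth is unknown, and Tnfrsf9 and Tnfrsf4 are low.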
